A study of Papio anubis and Macaca mulatta with 6 samples.

Results

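Macrophage marker barcodes of the immature primate testis, called members here, were examined in single-cell RNA-seq libraries of 2 baboons (Papio anubis) and 2 rhesus monkeys (Macaca mulatta). A barcode was a member when it held at least 500 UMIs (unique molecular identifiers, 1 per captured transcript), a UMI of at least 3 of the 10 genes CD163, CSF1R, C1QA, C1QB, C1QC, CD14, TYROBP, FCER1G, MRC1 and CD68, and UMIs of fewer than 2 of the lymphoid genes CD3D, CD3E, CD2, IL7R and NKG7. This gave 316 members among 63166 barcodes with at least 500 UMIs, 61 of 28322 in the baboons and 255 of 34844 in the rhesus monkeys. Because the members were selected on the counts of these 15 genes, the values of the 15 genes are given as a description and were not tested. C1QA is not listed in the rhesus tables, so 9 markers could be counted there.

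Macrophages of the testis live in the interstitium beside Leydig cells and vessels and on the surface of the seminiferous tubules. They take up dead cells and debris through scavenger receptors, make the C1q subunits that start the classical complement pathway, and display peptides on MHC class II. Colony-stimulating factor 1, sensed through CSF1R, sustains them, and the ETS factor PU.1, encoded by SPI1, drives much of the myeloid program.

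All animals were untreated and their testes were recovered at necropsy, with no genotype or strain in the labels. A pair of libraries came from baboon 1 (1A and 1B) and another pair from rhesus 2 (2A and 2B), while baboon 2 and rhesus 1 gave 1 library each. Version 3 of the 3′ capture chemistry of 10x Genomics was used for baboon 2, and version 2 for all other libraries, so in the baboons chemistry and animal cannot be told apart. All animals were prepubertal, but the series text and the methods of the study give the 2 pairs of ages to opposite species, and no age was assigned to an animal. In 1 of these pairs a newborn stands beside an older animal, and in both pairs the ages differ. Age and animal therefore cannot be told apart within either species. The tissue was digested with collagenase and then washed to remove interstitial cells before trypsin, so every share below is that of the cells left after this wash. The libraries held 31074298 UMIs (1A), 16875294 (1B), 49803025 (baboon 2), 38106092 (rhesus 1), 19675453 (2A) and 18806225 (2B), of which 70.5% to 89.9% lay in barcodes with at least 500 UMIs. Each library targeted 5000 cells, and 6530 to 18389 barcodes passed 500 UMIs. Libraries 1A and 1B shared 101 of these barcodes and libraries 2A and 2B shared 126, with no member barcode among them.

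Members were found in 5 of the 6 libraries. In the baboons, library 1A held 14 members of 12601 barcodes (0.111%, 95% exact Clopper-Pearson interval 0.0608 to 0.186), library 1B held 0 of 6530 (exact upper limit 0.0565%, where 3 counts would be 0.0459%), and baboon 2 held 47 of 9191 (0.511%, 0.376 to 0.679). In the rhesus monkeys, the share was 0.935% in rhesus 1 (172 of 18389, 0.801 to 1.09), 0.553% in library 2A (47 of 8501, 0.407 to 0.735) and 0.453% in library 2B (36 of 7954, 0.317 to 0.626). Both libraries of rhesus 2 overlapped in their intervals, whereas library 1B lay below library 1A of the same animal under this rule. Library 1A stood at 0.103% (0.0549 to 0.176) with at least 4 markers and 0.0794% (0.0381 to 0.146) with at least 5. Both of these intervals reach below the upper limit of library 1B. Under this rule rhesus 1 lay above the other libraries, but with at least 5 markers it stood at 0.370% (0.287 to 0.469) beside 0.400% (0.277 to 0.558) in library 2A, and thinned to 500 UMIs at 0.533% (0.433 to 0.649) beside 0.471% (0.336 to 0.640). Baboon 1 (0.0732%, 0.0400 to 0.123) lay below the other 3 animals. The intervals cover counting error only, and no test was made of a share that the rule itself set. The lymphoid marker barcodes, those with a UMI of at least 2 of the 5 lymphoid genes and of fewer than 3 markers, followed another order, with 10 in 1A, 13 in 1B, 35 in baboon 2, 58 in rhesus 1 and 0 of 16455 in rhesus 2.

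**Figure D1:**
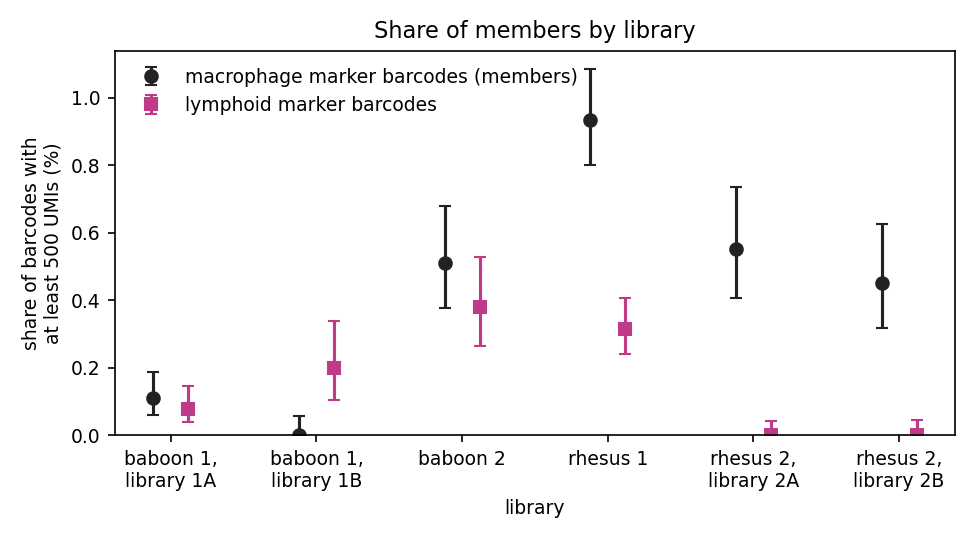
Share of barcodes with at least 500 UMIs (%, y axis) in each library (x axis) that were members (black circles) or lymphoid marker barcodes (pink squares), with exact 95% binomial intervals. Members reach 0.935% in rhesus 1 and are at 0 in library 1B, and the lymphoid marker barcodes are at 0 in both libraries of rhesus 2.

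The median depth of the members was 2316.5 UMIs in baboon 1, 2326 in baboon 2, 1192 in rhesus 1 and 1519 in rhesus 2, beside 1555, 2261.5, 1121 and 1393 in the other barcodes of the same animals. Summed over cells, the members held 46800, 199396, 340902 and 283105 UMIs, which set the precision of every level below. Baboon 1 was thus the thinnest sample, with 14 cells, and 3 counts there amounted to 64.1 CPM (counts scaled to a common total), against 15.0 in baboon 2, 8.80 in rhesus 1 and 10.6 in rhesus 2. All levels are CPM of the summed cells and are compared within a gene, not between genes.

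Genes of the C1q subunits were found in most members. C1QB, the B chain of C1q, had a UMI in 78.6% of the members of baboon 1, 83.0% in baboon 2, 92.4% in rhesus 1 and 96.4% in rhesus 2, and in 57.1%, 57.4%, 74.4% and 83.1% once each cell was thinned to 500 UMIs. C1QC, the C chain, was found in 85.7%, 76.6%, 86.6% and 91.6%, and C1QA, the A chain, in 71.4% and 78.7% of the members of the 2 baboons. C1QB and C1QC were found in the same cell in 44 of 61 baboon members and 217 of 255 rhesus members. TYROBP, an adaptor that carries activating signals of immune receptors, had a UMI in 78.6%, 72.3%, 75.6% and 85.5% of the members. FCER1G, the shared signaling chain of Fc receptors, was found in 85.7% and 80.9% of the baboon members but in 20.3% and 31.3% of the rhesus members (78.6%, 48.9%, 6.40% and 7.23% after thinning). CD14, a co-receptor for lipopolysaccharide, was found in 40.4% to 59.9%, and CSF1R in 42.6% to 64.3%. Of the CD14 UMIs in barcodes with at least 500 UMIs, members held 8.72% and 9.01% in the 2 baboons and 68.8% and 76.6% in the 2 rhesus monkeys.

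Detection of the scavenger receptors was uneven across the animals. CD163, which binds hemoglobin-haptoglobin, had a UMI in 29 of 172 members of rhesus 1 (16.9%) and in 63 of 83 members of rhesus 2 (75.9%), at 103 and 1265 CPM. In the baboons it was found in 4 of 14 and 13 of 47 members, at 85.5 and 130 CPM. After every cell was thinned to 500 UMIs, CD163 was found in 5.23% of the members of rhesus 1 and 59.0% of those of rhesus 2. MRC1, the mannose receptor, was found in 52 of 172 and 42 of 83 rhesus members, and CD68, a lysosomal membrane protein, in 51 of 172 and 47 of 83. MRC1 and CD163 were found together in 6 of 61 baboon members and 49 of 255 rhesus members. These are values of 1 animal each and the genes are those of the rule, so no test was made.

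**Figure D2:**
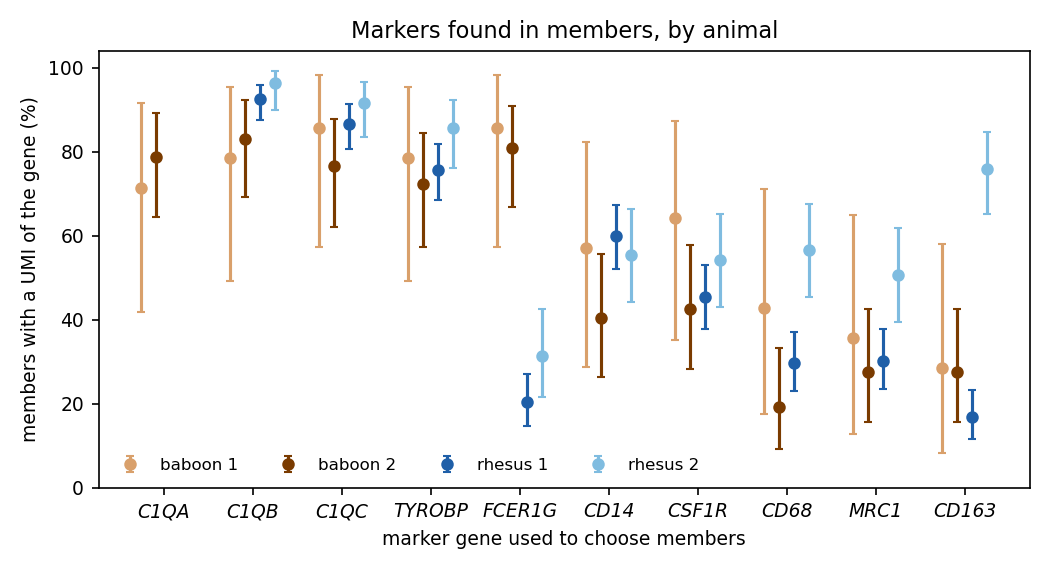
Share of members with at least 1 UMI of each selected marker (%, y axis) by gene (x axis) and animal (colors), with exact 95% binomial intervals. FCER1G stands at 20.3% and 31.3% in the rhesus monkeys and above 80% in the baboons, CD163 stands at 75.9% in rhesus 2, and C1QA has no rhesus value.

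The members were not uniform in how far they passed the threshold. Of the baboon members, 15 had exactly 3 markers and 35 had 5 or more, with summed marker levels of 601 and 19751 CPM. Of the rhesus members, 80 had 3 markers, 47 had 4 and 128 had 5 or more, at 2331, 8392 and 16489 CPM. Just outside the threshold, 64 baboon barcodes and 122 rhesus barcodes had 2 markers, at 430 and 1421 CPM. CD74, the invariant chain of MHC class II, which was not part of the rule, had a UMI in 29.7% of the baboon barcodes with 2 markers, 53.3% of those with 3 and 88.6% of those with 5 or more. In the rhesus monkeys the animals differed, with 71.9%, 84.8% and all of 68 in rhesus 1 and 30.8%, 57.1% and 81.7% in rhesus 2, and 96 of the 122 barcodes with 2 markers were from rhesus 1. With 4 markers the CD74 share was 54.5% in the baboons, 97.4% in rhesus 1 and 55.6% in rhesus 2. Of the 15 baboon members with 3 markers, 9 also held UMIs of at least 3 Sertoli genes, beside 11 of the 35 with 5 or more markers.

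Transcripts of Sertoli and stromal cells were present in the members too. UMIs of at least 3 Sertoli genes were found in 7 of 14 members of baboon 1, 16 of 47 of baboon 2, 81 of 172 of rhesus 1 and 24 of 83 of rhesus 2, beside 74.9%, 52.4%, 65.8% and 37.8% of the other barcodes. The Sertoli list summed to 5128 CPM in the members of baboon 1, 6811 in baboon 2, 4092 in rhesus 1 and 1321 in rhesus 2. The other barcodes stood at 8887, 8536, 8094 and 6477 CPM, and barcodes of 10 to 100 UMIs, too few for a cell, at 8572, 7096, 7275 and 8634 CPM. AMH, the anti-Müllerian hormone made by Sertoli cells, had the most UMIs of that list in the members of all 4 animals, at 3141, 5186, 1596 and 374 CPM in the members. Stromal genes summed to 833, 1675, 3731 and 1773 CPM in the members and to 1368, 3210, 10247 and 12616 CPM in the other barcodes. When members with at least 3 genes of any such list were left out, 7, 19, 70 and 44 members were left in the 4 animals. The part of free RNA and of doublets in the members was not tested.

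The reverse was measured as well. It used barcodes with at least 3 genes of 1 other cell type and fewer than 3 of every further type, 17044 Sertoli barcodes in the baboons and 11591 in the rhesus monkeys. Thinned to 500 UMIs, any of the markers listed (10 in the baboons, 9 in the rhesus monkeys) was found in 0.686% of the Sertoli barcodes (baboon, median depth 2029 UMIs) and 1.71% (rhesus, 1014 UMIs), and in 0.661% and 0.957% of the 4841 and 13271 stromal barcodes. In the members the same share was 88.5% and 95.3%. The summed marker level was 13504 CPM in the members of baboon 1, 7874 in baboon 2, 9252 in rhesus 1 and 13451 in rhesus 2. It was 13.3, 17.3, 37.0 and 19.6 CPM in the other barcodes and 51.8, 103, 105 and 122 CPM in the barcodes of 10 to 100 UMIs. The member level was 1018-, 454-, 250- and 687-fold that of the other barcodes, a difference that the rule fixed. The rule also kept barcodes with at least 3 markers out of the other barcodes, except for 1 in rhesus 1 that the lymphoid limit left there.

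**Figure D3:**
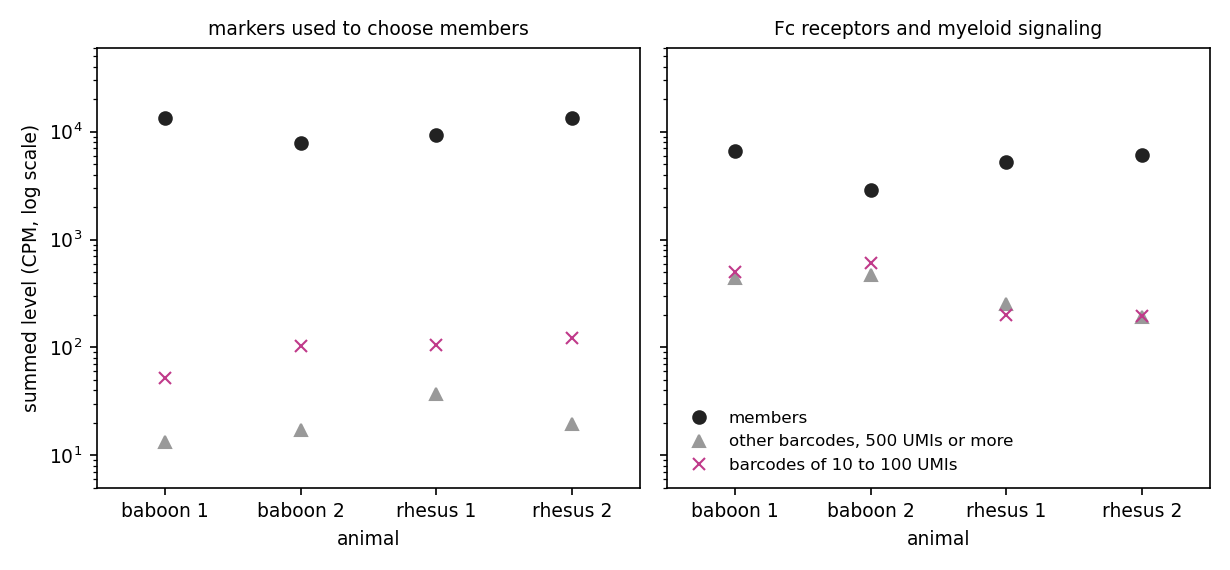
Summed level (CPM, log scale, y axis) of the selected markers (left) and of the genes for Fc receptors and myeloid signaling (right) in each animal (x axis), in members (black circles), other barcodes with at least 500 UMIs (gray triangles) and barcodes of 10 to 100 UMIs (pink crosses). The members lie above both other classes in every animal, by the rule on the left and outside it on the right.

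The promoters of the 10 selected markers were read from the rhesus genome, to show sequence of the genes that define the members. The letters GAGGAA, a core that PU.1 binds, were searched for on both strands in the 250 bases before each annotated start (on the other strand they read TTCCTC). They were present in 7 of the 10 marker promoters, those of CSF1R, C1QA and FCER1G having no match, and in 21.8% of the 21081 promoters of protein-coding genes. Among the genes higher in rhesus members by the test given further on the share was 26.2% (73 of 279), among those lower 19.6% (10 of 51). Of the genes outside the rule, AIF1 had 3 matches and SPI1 had 1, while CD74, CTSS, CYBB, CD4 and LYZ had none. A match is a description of the letters only. The promoters of C1QB (Mmul_10, minus strand, chr1:202126078-202126327), MRC1 (plus strand, chr9:18958889-18959138) and AIF1 (minus strand, chr4:137891697-137891946) are shown 5′ to 3′ from the RefSeq annotation, as examples with 1, 2 and 3 matches, which stand in capitals (AIF1 is not a marker of the rule).
C1QB: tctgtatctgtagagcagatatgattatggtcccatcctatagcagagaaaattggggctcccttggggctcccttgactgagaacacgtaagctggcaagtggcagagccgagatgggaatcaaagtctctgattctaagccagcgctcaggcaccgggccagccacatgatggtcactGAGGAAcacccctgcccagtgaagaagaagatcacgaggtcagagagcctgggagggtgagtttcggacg
MRC1: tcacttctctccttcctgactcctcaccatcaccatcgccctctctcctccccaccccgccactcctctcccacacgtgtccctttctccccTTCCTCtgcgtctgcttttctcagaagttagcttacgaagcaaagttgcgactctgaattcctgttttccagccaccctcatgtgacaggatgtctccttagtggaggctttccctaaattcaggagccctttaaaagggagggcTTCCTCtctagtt
AIF1: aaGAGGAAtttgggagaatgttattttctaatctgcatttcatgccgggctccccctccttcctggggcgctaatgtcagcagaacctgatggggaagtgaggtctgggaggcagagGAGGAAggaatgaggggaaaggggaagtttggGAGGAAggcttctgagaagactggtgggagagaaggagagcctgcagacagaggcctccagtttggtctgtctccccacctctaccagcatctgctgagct

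The remaining genes were compared between the members and all other barcodes with at least 500 UMIs, on UMI counts summed per animal (n = 2 animals in each group, each species alone), with edgeR's quasi-likelihood test and Benjamini-Hochberg adjustment. In the baboons 334 of 15359 genes passed an adjusted p of 0.05 (2.17%), 326 higher in the members (2.12%) and 8 lower (0.0521%). The count of lower genes depended on the setting. It was 33 of 15212 with at least 5 markers and 125 of 15159 without members that held at least 3 genes of another cell type. In the rhesus monkeys 361 of 12622 genes passed (2.86%), 309 higher (2.45%) and 52 lower (0.412%). With the animal as a block, which pairs the members of an animal with its other cells, the rhesus count was 1309 (10.4%), of which 633 were higher (5.02%) and 676 lower (5.36%), and the baboon count was 277 (1.8%), of which 272 were higher (1.77%) and 5 lower (0.0326%). Calls are those of the fit without the block unless the block is named, and where the block changed the call of a gene given below, or moved a list's count by more than 1.5-fold, its result stands beside it. The median log2 fold change over all genes tested was -0.40 in the baboons and -0.25 in the rhesus monkeys, so a fold change of 0 lies above the typical gene. A gene that passed the filter on low counts through the members alone had to differ, so the counts and medians given below for each gene list describe that list and support nothing more. The test refers to genes outside the rule in cells that the rule selected, and with 2 animals it measures the spread between them only. As the counts are of summed cells, fewer cells of a type and less RNA per cell cannot be told apart.

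Of the genes for MHC class II and antigen presentation, 5 of 7 tested were higher in baboon members and 7 of 10 in rhesus members, with medians of 5.85 and 6.13. Chains of the MHC class II molecules themselves could be tested in the rhesus monkeys only, since the baboon tables list none by the names searched. CD74, in baboon members, stood at 14722 CPM (baboon 1) and 3546 CPM (baboon 2), against 118 and 25.4 CPM in the other barcodes (log2 fold change 6.63 ± 0.79 SE, adjusted p = 1.65e-12). In rhesus members it stood at 13808 and 6545 CPM, against 128 and 135 CPM (6.29 ± 0.69, adjusted p = 0.00107). The summed levels of the animals did not overlap between members and other barcodes in either species, but single barcodes did. CD74 had a UMI in 29.7% of the baboon and 63.1% of the rhesus barcodes with 2 markers, which were not members. Not every member held a UMI of CD74. HLA-DRA, the alpha chain of the DR molecule, listed by this name in the rhesus tables only, stood at 11079 and 5539 CPM in members and 83.0 and 48.2 CPM in other barcodes (6.94 ± 0.77, adjusted p = 0.00109). It had a UMI in 90.1% of the members of rhesus 1 and 54.2% of those of rhesus 2 (81.4% and 42.2% after thinning to 500 UMIs). HLA-DRB5 and MAMU-DMB, a DR beta chain and a chain of the DM peptide exchanger, were also higher in rhesus members, by 6.10 and 6.15 on the log2 scale. MAMU-DOB, a chain of the DO molecule, did not pass (14.7 and 17.7 CPM in members against 12.2 and 5.84 CPM, 0.76 ± 0.72, adjusted p = 0.623). CD86, the costimulatory ligand that T cells read through CD28, was higher in both species (9.38 and 8.25). CTSS, the cathepsin that trims the invariant chain, stood at 470 and 376 CPM in baboon members and 317 and 304 CPM in rhesus members, against 1.31 to 1.79 CPM in the other barcodes of the 4 animals (7.71 ± 0.56 and 7.67 ± 0.53). B2M, the light chain of MHC class I, stood at 3825 and 727 CPM in baboon members against 844 and 233 CPM, and at 15286 and 10226 CPM in rhesus members against 4849 and 1796 CPM. It did not pass without the block (adjusted p = 0.1245 and 0.2205) and was called with it (0.0194 and 6.47e-06). CD40, a costimulatory receptor, did not pass in the baboons (adjusted p = 0.712). CIITA, the master regulator of MHC class II genes, was called in the baboons (adjusted p = 0.00291, and 0.0601 with the block) with 0 UMIs in baboon 1 and 20.1 CPM in baboon 2, and did not pass in the rhesus monkeys (2 and 4 UMIs in members, adjusted p = 0.173).

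AIF1, which encodes the calcium-binding protein IBA1 and by which the study named macrophages, could be counted in the rhesus monkeys only. From clusters of cells, the study reported macrophages in human and rhesus samples and none in the baboons. The baboon members here were chosen barcode by barcode, which is another measure. AIF1 stood at 792 CPM in the members of rhesus 1 and 519 CPM in those of rhesus 2, against 5.30 and 1.10 CPM in the other barcodes (7.57 ± 0.92, adjusted p = 0.00178). A UMI of AIF1 was found in 102 of 172 and 50 of 83 members, and after thinning to 500 UMIs in 38.4% and 27.7%, beside 0.357% and 0.0611% of the other barcodes. Given as a description, the share in the barcodes with 2 markers was 26.0% in rhesus 1 and 11.5% in rhesus 2, in the members with 3 it was 42.4% and 42.9%, and in those with 5 or more 80.9% and 70.0%.

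Fc receptors and genes of myeloid signaling formed the list with the most genes higher. Of 40 listed, 31 passed the filter on low counts in the baboons and 24 were higher, and in the rhesus monkeys 35 passed and 32 were higher. No gene of the list was lower, and the medians were 6.39 and 6.78. MS4A7, a membrane protein of macrophages, stood at 107 and 256 CPM in baboon members and 692 and 883 CPM in rhesus members, against at most 2.82 CPM in other barcodes (11.43 ± 0.69 and 8.62 ± 0.80). MPEG1, the pore-forming perforin-2, stood at 235 and 55.2 CPM and at 331 and 261 CPM (10.86 ± 0.92 and 9.72 ± 0.75). FCGR1A, the high-affinity receptor for IgG, was higher by 9.44 and 7.62. CYBB, the catalytic subunit of the phagocyte NADPH oxidase, was among the largest rhesus changes, at 103 and 268 CPM against 0.148 and 0.146 CPM (10.19 ± 0.69, adjusted p = 0.000159). SPI1 was higher in both species (6.11 ± 0.54 and 4.82 ± 1.06), at 235 and 166 CPM in baboon members but on 2 and 5 UMIs in rhesus members, where the block ended its call (adjusted p = 0.0535). TREM2, a lipid receptor, and CX3CR1, the fractalkine receptor, were higher in both species on 2 to 38 UMIs an animal.

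Of the genes for complement and scavenging, 7 of 12 tested were higher in the baboons and 9 of 17 in the rhesus monkeys. VSIG4, the complement receptor of the immunoglobulin family, stood at 128 and 145 CPM in baboon members and 249 and 724 CPM in rhesus members, against 0.0256 to 1.00 CPM in other barcodes (11.54 ± 0.77 and 9.12 ± 0.75). Of all its UMIs in the barcodes compared, 85.7%, 93.5%, 75.9% and 91.9% lay in the members of the 4 animals. C3AR1 and C5AR1, the receptors for the fragments C3a and C5a, were higher by 10.73 and 8.10 in the baboons and by 9.15 and 6.57 in the rhesus monkeys. STAB1, the scavenger receptor stabilin-1, was higher by 7.69 in the baboons, on 1 and 26 UMIs, and by 7.12 in the rhesus monkeys. LYVE1, a hyaluronan receptor of a vessel-associated macrophage state, had 1 UMI in the members of baboon 1, under the 3 counts given above, and stood at 40.1 CPM in those of baboon 2 and at 114 and 28.3 CPM in rhesus members (4.12 ± 0.95 and 4.33 ± 0.88). FOLR2, the folate receptor beta, tested in the rhesus monkeys only, stood at 396 and 523 CPM (8.63 ± 0.82). MSR1, the class A scavenger receptor, stood at 52.8 and 91.8 CPM in rhesus members (9.76 ± 0.64). GAS6, a bridging ligand for the TAM receptors, was listed among these genes but did not pass in either species (-0.42 ± 0.53 and -0.91 ± 0.47), though with the block it was lower in the rhesus monkeys (adjusted p = 0.0493). AXL, a TAM receptor, was at 0 in the baboon members and at 52.8 and 70.6 CPM in the rhesus members, against 60.3 and 95.1 CPM in the other rhesus barcodes. CD36, a receptor for oxidized lipid, stood at 0 and 35.1 CPM in baboon members against 10.4 and 14.2 CPM. CD36 in the rhesus members stood at 41.1 and 162 CPM against 10.2 and 88.9 CPM, and was called with the block only. TIMD4, a phosphatidylserine receptor, was at 0 in the baboon members and at 14.7 and 24.7 CPM in the rhesus members, and was called there with the block only (adjusted p = 0.0204, and 0.0978 without it). CFD, complement factor D, stood at 1332 and 2031 CPM in rhesus members against 118 and 6.46 CPM, and was likewise called with the block only (adjusted p = 8.41e-33, and 0.0788 without it). MERTK and SCARB1 did not pass in either species with or without the block.

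**Figure D4:**
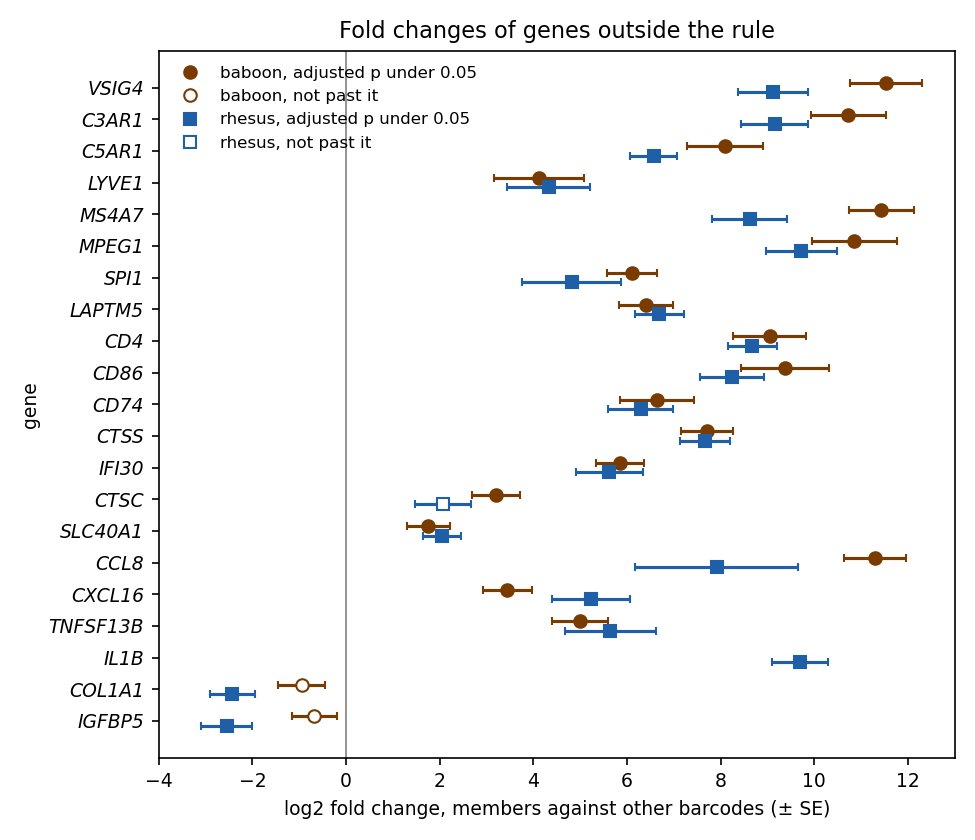
Log2 fold change of named genes outside the rule (y axis) between members and other barcodes (x axis, with SE), in baboon (brown circles) and rhesus (blue squares), n = 2 animals a group. Filled symbols passed an adjusted p of 0.05, open symbols did not, and a missing symbol was not tested in that species.

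Lysosomal and lipid genes were split. In the baboons 5 of 27 genes tested were higher, CTSH, CTSZ, CTSC, CTSB and LGMN, all of them proteases, with a median of 0.01 over the list. In the rhesus monkeys 10 of 30 were higher, with a median of 1.64, and with the block 20 were higher and 1 lower. LYZ, lysozyme, stood at 2232 CPM in the members of rhesus 1 and 9410 CPM in those of rhesus 2, against 5.26 and 6.83 CPM (9.88 ± 0.91, adjusted p = 0.000404). In the baboons LYZ was found on 1 UMI in all members. FABP4 and GPNMB, a fatty acid carrier and a lysosomal glycoprotein of lipid-laden macrophages, were higher in the rhesus monkeys with most of their UMIs in rhesus 2, 74 of 74 and 72 of 80. APOE, the lipid carrier, stood at 3397 and 1710 CPM in baboon members and 4729 and 7672 CPM in rhesus members, but also at 596 to 3232 CPM in the other barcodes, and did not pass (0.35 ± 0.58 and 1.04 ± 0.52). Of the genes of iron and heme handling, SLC40A1, the iron exporter ferroportin, was the only gene past the test in either species (1.76 ± 0.45 and 2.05 ± 0.40), beside 2 of 8 genes in the baboons and 5 of 10 in the rhesus monkeys with the block. FTL, the ferritin light chain, stood at 8627 and 16245 CPM in rhesus members against 2641 and 3335 CPM (2.05 ± 0.54, adjusted p = 0.0908, and 1.34e-05 with the block). HMOX1, heme oxygenase 1, stood at 109 CPM in the members of rhesus 1 and 1561 CPM in those of rhesus 2 (4.27 ± 0.98, adjusted p = 0.0525), and at 107 and 135 CPM in baboon members (adjusted p = 0.102). With the block HMOX1 was called in both species (adjusted p = 6.91e-14 in the rhesus monkeys and 0.0169 in the baboons).

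Cytokine and chemokine genes were higher in part, 9 of 20 genes tested in the baboons and 12 of 24 in the rhesus monkeys, with medians of 2.03 and 3.25. CCL8, a monocyte chemoattractant, stood at 321 and 211 CPM in baboon members against 0.0256 and 0.135 CPM (11.29 ± 0.67, adjusted p = 9.52e-37). In the rhesus monkeys it stood at 261 CPM in rhesus 1 and 0 in rhesus 2 (a count of 0 allows up to 10.6 CPM), so its call there (adjusted p = 0.0441) rests on 1 animal. IL1B, the inflammatory cytokine, stood at 79.2 and 88.3 CPM in rhesus members against 0.111 and 0.073 CPM (9.69 ± 0.60, adjusted p = 0.000159). CCL3 and CCL4L1, chemokines that attract leukocytes, stood at 1185 and 1162 CPM and at 1517 and 562 CPM in rhesus members (8.12 ± 1.05 and 7.79 ± 1.13). Within rhesus 2, CCL3 stood at 611 CPM in library 2A and 2101 CPM in library 2B. CXCL16 and TNFSF13B, which encodes the B cell factor BAFF, were higher in both species, by 3.45 and 4.99 in the baboons and 5.23 and 5.65 in the rhesus monkeys. CXCL10, an interferon-induced chemokine, stood at 726 CPM in baboon 1 and 20.1 CPM in baboon 2 (5.68 ± 0.57), against 6.35 and 2.87 CPM. IGF1, a growth factor, was higher in the baboons at 128 and 110 CPM against 18.1 and 30.8 CPM (2.09 ± 0.51, adjusted p = 0.00409). TGFB1, which encodes a cytokine that restrains inflammation, was higher in both species.

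**Figure D5:**
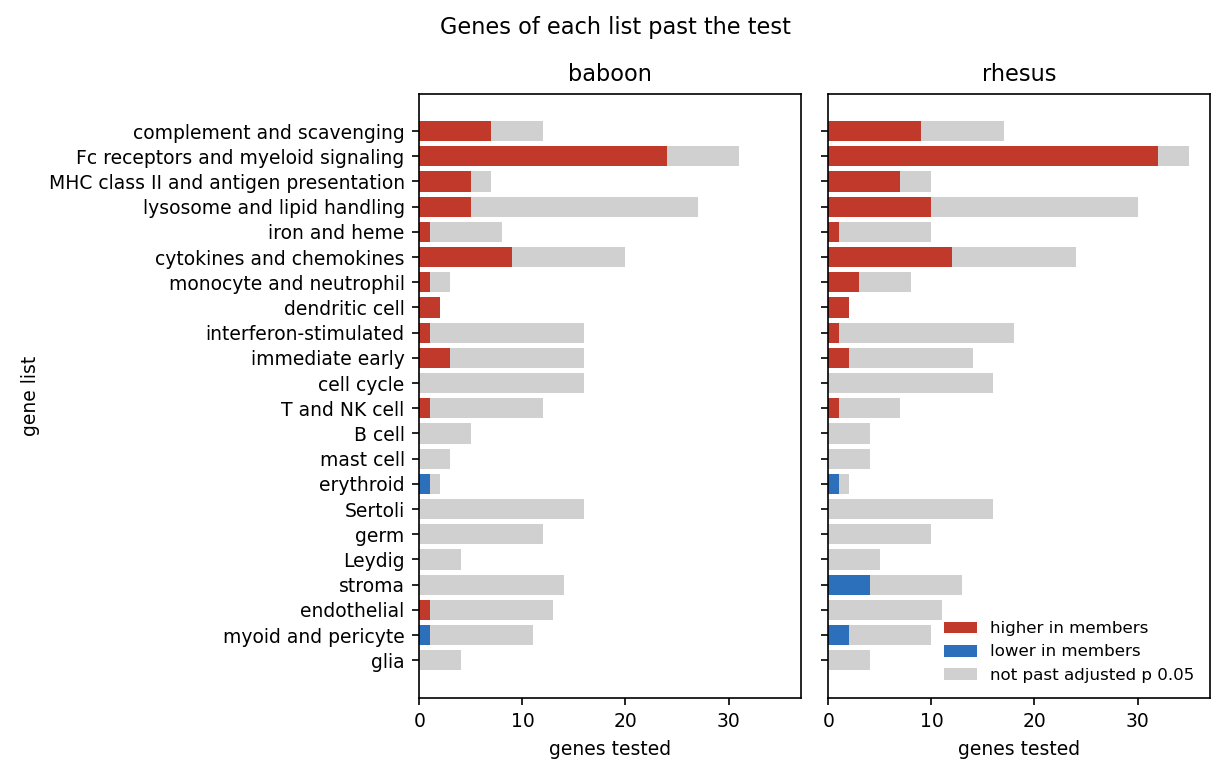
Number of genes tested in each gene list (x axis) that were higher in members (red), lower in members (blue) or not past an adjusted p of 0.05 (gray), by list (y axis), for baboon (left) and rhesus (right). The Fc receptor and myeloid signaling list holds 24 of 31 and 32 of 35 genes higher, and the Sertoli, germ and Leydig lists hold none in either direction in this fit, which has no block for the animal.

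Genes of T, NK and B cells were mostly at 0 in the members. Of the T and NK cell list, 16 of 17 genes listed were at 0 in baboon 1, 15 of 17 in baboon 2, 15 of 20 in rhesus 1 and 16 of 20 in rhesus 2. The rule itself limited lymphoid genes. In the other barcodes the T and NK cell list summed to 16.9 CPM (baboon 1), 22.7 (baboon 2), 56.8 (rhesus 1) and 4.35 (rhesus 2). The sums of baboon 1 and rhesus 2 are under what 3 counts amount to in the members there (64.1 and 10.6 CPM), so zeros there do not set the members apart. The gene of that list which passed was CD4 in both species, a T cell co-receptor that primate macrophages also carry, at 171 and 80.2 CPM in baboon members and 129 and 117 CPM in rhesus members (9.05 ± 0.78 and 8.68 ± 0.52). Of the B cell list, 5 to 7 of 8 genes were at 0 and none passed. HPGDS was the sole mast cell gene found in baboon members and in those of rhesus 1, and CPA3 was at 0 in the members of all 4 animals. In rhesus members HPGDS had 8 and 1 UMIs (6.08 ± 1.57, adjusted p = 0.0854, and 0.0279 with the block), and GATA2, MS4A2 and KIT had 1 UMI each in rhesus 2. The monocyte and neutrophil list summed to 427, 65.2, 370 and 883 CPM in the members, against 7.61, 7.77, 18.9 and 94.5 CPM in other barcodes. Within rhesus 2 the members summed to 426 CPM in library 2A and 1662 CPM in 2B, where S100A8 stood at 697 CPM. Of the genes tested, 1 of 3 was higher in the baboons (PLAC8) and 3 of 8 in the rhesus monkeys (FCN1, CAMP and CCR2), or 5 of 8 with the block. FCN1, a ficolin of monocytes, stood at 44.0 and 17.7 CPM in rhesus members against 0.0370 and 0.0365 CPM (9.44 ± 0.98, adjusted p = 0.000795). S100A8, a calcium-binding alarmin, was at 0 in the members of both baboons and rhesus 1, and had 86 UMIs in 7 of 83 members of rhesus 2, 30 of them in 1 cell. BATF3, a factor of cross-presenting dendritic cells, was higher in both species but on 0 UMIs in baboon 1, and FCER1A and IDO1 were higher in 1 species each.

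Of the immediate early genes, which respond to tissue handling as well as to signals, 3 of 16 tested were higher in the baboons and 2 of 14 in the rhesus monkeys. FOS stood at 2350 and 5798 CPM in baboon members and 3649 and 1540 CPM in rhesus members, against 1194 to 5647 CPM in other barcodes, and did not pass (0.17 ± 0.61 and -0.18 ± 0.57). IER3 and KLF6 were higher in both species, KLF6 by 2.23 and 2.49. MX2 was the only interferon-stimulated gene of 16 tested past the threshold in the baboons and OAS2 the only one of 18 in the rhesus monkeys. With the block 4 interferon-stimulated genes were higher and 1 lower in the rhesus monkeys, as were 4 and 1 of the immediate early genes. None of 16 cell cycle genes passed in either species. MKI67, a proliferation marker, had 0 UMIs in the baboon members and a UMI in 3 of 255 rhesus members. An adjusted p that misses the threshold does not show that levels were alike.

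The genes lower in the members included genes of stroma, contractile cells and red cells. In the rhesus monkeys, COL1A1, a chain of fibrillar collagen, stood at 161 and 120 CPM in members against 509 and 1085 CPM in the other barcodes (log2 fold change -2.43 ± 0.48, adjusted p = 0.0278). IGFBP5, a binding protein of insulin-like growth factors, stood at 308 and 265 CPM against 879 and 2700 CPM (-2.55 ± 0.55, adjusted p = 0.0404). These were the 2 genes lower in members with at least 500 CPM in the other barcodes of both animals. In all, 4 of 13 stromal genes (COL3A1, COL1A1, C7 and COL1A2) and 2 of 10 myoid and pericyte genes (ACTA2 and MCAM) were lower, and with the block 12 stromal and 5 myoid and pericyte genes were lower. ACTA2, smooth muscle actin, stood at 2.93 and 7.06 CPM in members (1 and 2 UMIs) against 82.5 and 121 CPM (-4.37 ± 0.59, adjusted p = 0.00337). HBB, beta globin, stood at 5.87 and 38.9 CPM in rhesus members against 170 and 1563 CPM (-5.20 ± 1.05, adjusted p = 0.0303). The libraries of rhesus 2 differed, as the red cell list that includes HBB summed to 2504 CPM in the other barcodes of 2A and 553 CPM in those of 2B. In the baboons HBB was at 0 in the members of both animals, against 71.2 and 78.3 CPM, where a count of 0 allows up to 64.1 CPM in baboon 1 and 15.0 CPM in baboon 2 (adjusted p = 4.82e-05). TAGLN, an actin-binding protein of contractile cells, and CAV1, the coat protein of caveolae, were at 0 in the baboon members too, but their levels in the other cells of baboon 1 (30.4 and 29.9 CPM) were under what 3 counts amount to there, and the block ended the call of CAV1 (adjusted p = 0.206). Without the block, none of 16 Sertoli genes passed in either species, with medians of -0.68 and -1.44, and no germ or Leydig gene passed. With the block none passed in the baboons, but 11 of 16 Sertoli genes and 2 of 5 Leydig genes (INSL3 and CYP17A1) were lower in rhesus members. AMH stood at 1596 and 374 CPM in rhesus members against 3318 and 2290 CPM in the other barcodes (-1.82 and adjusted p = 3.86e-05 with the block, adjusted p = 0.327 without it). Of the germ cell genes in the rhesus monkeys, 9 of 10 fitted fold changes lay above 0 (median 1.47), but none passed without the block. With the block 3 of them (MAEL, ID4 and SOHLH1) were higher. The germ list had a median of -0.65 in the baboons. The germ list summed to 188 CPM in the members of rhesus 1 and 272 CPM in those of rhesus 2, against 115 and 73.1 CPM in the other barcodes, and its part in the other results was not tested. PECAM1, an adhesion molecule of endothelium that leukocytes also carry, was the 1 endothelial gene of 13 tested that was higher in baboon members (2.93 ± 0.84, adjusted p = 0.0294), a call that the block ended (adjusted p = 0.103). No endothelial gene of 11 passed in the rhesus monkeys, and with the block 2 were higher (PECAM1 and EGFL7) and 4 lower.

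Among the 10 largest changes of each species were genes outside the lists. CD5L, an inhibitor of apoptosis secreted by tissue macrophages, stood at 385 and 45.1 CPM in baboon members against 0.0769 and 0.0898 CPM (10.61 ± 0.77, adjusted p = 3.75e-28). F13A1, the A subunit of coagulation factor XIII, stood at 64.1 and 65.2 CPM in baboon members (10.03 ± 1.10) and at 176 and 166 CPM in rhesus members (8.19 ± 0.71). RETN, the cysteine-rich hormone resistin, which primate myeloid cells make, stood at 302 CPM in rhesus 1 and 3034 CPM in rhesus 2 (10.05 ± 1.17, adjusted p = 0.00139) and at 107 and 105 CPM in the baboons (8.53 ± 0.73). PILRA, an inhibitory receptor, stood at 29.3 and 95.4 CPM in rhesus members (10.40 ± 0.93). FPR3, a receptor of the formyl peptide family, stood at 8.80 and 42.4 CPM (9.84 ± 1.31). Genes known by an identifier only led both species. LOC108587339 was higher in baboon members by 12.06 ± 1.12, on 5 and 15 UMIs against 0 and 1 in the other barcodes, and LOC101006760 by 11.64 ± 0.92, on 7 and 17 UMIs against 0 and 2. ENSMMUG00000062917 had 17 and 5 UMIs in rhesus members and 0 in the other barcodes of both animals (adjusted p = 0.00108). LOC116269732 stood in the baboons at 769 and 617 CPM in members against 0.102 and 0.426 CPM (11.11 ± 0.69, adjusted p = 1.53e-34).

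The species were tested alone and share no samples. Of 9907 symbols tested in both, 220 were higher in baboon members and 214 in rhesus members, and 149 were higher in both, which is 67.7% of the baboon genes and 69.6% of the rhesus genes. Of the genes lower, 6 in the baboons and 45 in the rhesus monkeys were tested in both, and 1, HBB, was lower in both. No gene was called in opposite directions. The same rule chose the members of both species and few lower genes could be compared, so shared calls were likely from the outset. The overlaps describe the calls and support nothing more. These overlaps were counted on the calls without the block only. With the block some of the 149 lost their baboon call, such as ADRB1, BIN2 and LYN, while B2M gained a call in both species. Of the baboon calls 54 of 334 had no gene symbol, and of the rhesus calls 21 of 361, and these could not be compared. The overlap is limited to the symbols both annotations use, and the species differ in build and annotation, so no test of a difference between species was made.

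Macrophage and lymphoid marker barcodes were compared in the baboons, where both animals had at least 10 barcodes in each class. In baboon 1 all 14 members were from library 1A, while 13 of its 23 lymphoid marker barcodes were from library 1B. Class and library are thus partly mixed in that animal. Of 1628 genes tested, 37 passed an adjusted p of 0.05 (2.27%), 16 higher in the members and 21 lower, and 215 passed with the animal as a block. APOE stood at 3397 and 1710 CPM in members against 236 and 216 CPM in lymphoid marker barcodes (3.44 ± 0.60, adjusted p = 0.0368). SELENOP, the selenium carrier, stood at 1090 and 913 CPM against 78.5 and 47.2 CPM (adjusted p = 0.0244). CCL8 and KLF4, a transcription factor of monocyte differentiation, were at 0 in the lymphoid marker barcodes. The T and NK cell genes CCL5, GZMK, CD3G, CD8A and CST7, of chemokine, granzyme, receptor and cystatin function, were at 0 in the members of both baboons and at 209 to 1845 CPM in the lymphoid marker barcodes. Both classes were chosen by genes of their cell types, so further genes of those types were likely to differ through the choice itself. A gene at 0 in either class passed the low-count filter through the other. These calls and levels describe the 2 classes and support nothing more. In rhesus 2 no lymphoid marker barcode was found, and this comparison was not made in the rhesus monkeys.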

How the data were processed

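Per the labels and the study's methods, the authors used Cell Ranger 3.1.0 for alignment and UMI counting, with the builds Mmul_10 for the rhesus libraries and Panubis1.0 for the baboon libraries, and Seurat 3.2.3 downstream. As deposited, the values are raw UMI counts of all barcodes, without cell calling or normalization. Members were chosen, and gene lists drawn up, with earlier results of these data known. Counts of members and of all other barcodes with at least 500 UMIs were summed per animal. They were fitted with edgeR 4.0.16 (TMM scaling, filterByExpr, quasi-likelihood test, R 4.3.3), with Benjamini-Hochberg adjustment over all genes tested except the 15 of the rule. The test per cell that the study used was not repeated because cells of 1 animal are not replicates, and nothing in the labels says more of how the 2 libraries of an animal were made. The steps were tested on simulated data. Members and other barcodes of an animal come from the same animal and so are paired: their deviations from the group means correlated at 0.407 over 2855 genes (baboon) and 0.309 over 6700 genes (rhesus). No doublet caller was run and doublets were kept. Members with at least 3 genes of another cell type were left out as an alternative. Other alternatives were DESeq2 1.42.0, other scalings and filters, other marker and UMI minimums, thinned cells and near-empty barcodes of 10 to 100 UMIs as the comparison. Shares carry 95% exact Clopper-Pearson intervals. The naming rule covers, per species, up to 10 genes highest and up to 5 lowest past the test and changed the same way in both animals (with at least 3 UMIs in the members of each animal, or at least 500 CPM in the other barcodes), up to 4 genes a list by level, the 15 genes of the rule, AIF1, CD4, LYVE1, FOLR2 and MHC class II genes. Not all of these are printed, and the other genes named were chosen after their values were seen. Sequences and coordinates come from the RefSeq annotation of Mmul_10, the build of the rhesus tables.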

Additional observations from a re-analysis of the deposited data

Results flagged for a closer look

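A signal appeared in barcodes that the comparisons did not use. Among barcodes with more than 100 and fewer than 500 UMIs, those with a UMI of at least 3 markers numbered 20 in library 1A (0.186% of such barcodes), 5 in 1B (0.106%), 60 in baboon 2 (0.444%), 112 in rhesus 1 (0.278%), 52 in 2A (0.484%) and 40 in 2B (0.375%). Library 1B, which held no member, was among them. With no control samples, these counts were set against the 3 counts that a count of 0 allows. Their part in shallow cells or free RNA was not tested.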

How the results depend on the processing

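The counts of genes past the test moved with the processing, mostly in the rhesus monkeys. The baboon count of 334 stayed within 1.5-fold except with near-empty barcodes as the comparison (162, of 7762 genes tested) and with the other barcodes thinned to the members' UMIs (42, of 2227 genes tested). The rhesus count of 361 was 616 (428 higher, 188 lower) without scaling, 668 with DESeq2, 982 without the filter, 1309 with the animal as a replicate block, 937 with libraries as samples, 893 with at least 5 markers, 229 at 1000 UMIs, 573 against near-empty barcodes and 218 thinned. The number of genes tested changed in some of these settings and not in others, and the cause of the shifts was not tested. The lymphoid comparison gave 37, and 59 with DESeq2, 145 without the filter and 215 with the replicate block. With the block the baboon count was 277 (272 higher, 5 lower), and it changed the calls of the named genes and lists where the text says so, mostly in the rhesus monkeys. The median log2 fold change of all genes tested, -0.40 in the baboons and -0.25 in the rhesus monkeys, was 0.13 and -0.05 with DESeq2, -1.57 and -0.74 without the filter, -1.05 and -0.37 with at least 5 markers and -7.27 and -0.98 without members that held other cell types' genes, over differing sets of genes. In the last setting, 414 baboon genes passed, 289 higher and 125 lower, in place of 326 and 8. With at least 5 markers, 332 baboon genes were higher and 33 lower.

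Leaving out 1 replicate left 284 baboon genes (without library 1B) and 272 to 361 rhesus genes, and where it left 1 animal there was no test. The log2 fold change ranged from -6.54 (baboon 1 alone, from 0 UMIs) to 5.48 (without library 1A) for BATF3 and from -7.22 to 6.32 for CIITA. Of the called genes that the naming rule covers, to which this tally is limited, 21 of 31 in the baboons and 30 of 35 in the rhesus monkeys kept direction and call in each alternative that tested them (8 to 11 and 7 to 12 alternatives a gene), and 29 and 35 kept direction where a value was given.

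The shares followed the rule. With at least 2 markers they were 0.162% (baboon 1), 0.990% (baboon 2), 1.46% (rhesus 1) and 0.662% (rhesus 2). With at least 4 they were 0.359% (baboon 2) and 0.576% (rhesus 1), and with at least 5, 0.272% (baboon 2), 0.370% (rhesus 1) and 0.365% (rhesus 2). Without members holding other cell types' genes they were 0.0366%, 0.207%, 0.381% and 0.267% in the 4 animals. Thinned to 500 UMIs they were 0.272% (baboon 2) and 0.533% (rhesus 1). The small number of members limits baboon 1 most, with 14 members and 46800 UMIs in all of them.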

Other observations

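Co-detection of scavenger receptors and MHC class II in the rhesus members is given beside the share of all members with HLA-DRA, which was 90.1% in rhesus 1 and 54.2% in rhesus 2. In rhesus 1, HLA-DRA had a UMI in 27 of the 29 members with CD163 and in 49 of the 52 with MRC1. In rhesus 2 the counts were 33 of 63 and 30 of 42. MRC1 and CD163 were found together in 13 of 172 members of rhesus 1 and in 36 of 83 of rhesus 2. LYVE1 had a UMI in 17 of the 52 members of rhesus 1 with MRC1 and in 3 of the 42 of rhesus 2, beside 25 of all 172 and 6 of all 83 members. These were 3 of 25 in library 2A and 0 of 17 in 2B. Each count comes from cells of 1 animal, found or missed at the depth of each cell, and the difference between the animals was not tested.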
